A study of Rattus norvegicus with 18 samples.

Results

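The genes described here are 10 transcripts that mark macrophages and related myeloid cells, taken by identifier from a table of 55335 genes counted in kidney RNA. They are Cd14 (ENSMUSG00000051439), Csf1r (ENSMUSG00000024621), Mrc1 (ENSMUSG00000026712), Tyrobp (ENSMUSG00000030579), Fcer1g (ENSMUSG00000058715), Itgam (ENSMUSG00000030786), Adgre1 (ENSMUSG00000004730), Cd68 (ENSMUSG00000018774), Lyz2 (ENSMUSG00000069516) and Aif1 (ENSMUSG00000024397). The pairing of these symbols with the identifiers came with the definition of the set, since the count table holds identifiers only. All 10 were in the table, and all 10 passed the filter on low counts. Polyadenylated kidney RNA was sequenced from 18 animals in 3 groups of 6. The treated group (Treat) was fed a high-fat diet, injected with STZ, a toxin of the insulin-producing cells, and then given TSK orally at a daily dose of 500 mg/kg for 4 weeks. The diabetic nephropathy model group (DN) had the same diet and injection, and the control group (Ctrl) had normal chow with gavage of the solvent. TSK is named in the labels by this abbreviation alone. Strain, sex and age are not given in the labels used here. The labels call the animals Rattus norvegicus, whereas the identifiers belong to the mouse, as do the builds named in the submitters' processing notes, so levels of different genes are not compared with each other.

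Macrophages in the kidney include long-lived resident cells and cells that develop from blood monocytes, which enter the tissue during injury. Their survival depends on signals through the CSF1 receptor, and the transcription factor PU.1 drives much of the myeloid gene program. Myeloid cells are a small part of kidney tissue, so their transcripts are measured here within RNA that comes mostly from tubules. In whole tissue, fewer cells of a type and less RNA per cell cannot be told apart. No marker of another cell type could be paired with an identifier, so the tissue label and the part that neutrophils, lymphocytes or other cells have in these values was not tested.

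The promoters of 7 of the 10 genes were matched by symbol in a RefSeq table of the rat assembly GRCr8, which covers 250 bases before to 50 after a gene's start. They were Cd14, Csf1r, Mrc1, Itgam, Adgre1, Cd68 and Lyz2. The letters GAGGAA, known as the PU box because PU.1 binds them, were searched on either strand. They were found in 7 of these 7 promoters and in 27.6% of all 33469 promoters in the table. The C/EBP-type letters TTGCNNAA were found in 3 of the 7 (Itgam, Adgre1 and Lyz2), against 10.6% of all promoters. The AP-1 letters TGANTCA were found in Cd68 alone of the 7, against 7.33% of all promoters. No match of one motif overlapped a match of another in these 7 promoters. These matches describe the letters and not the binding of a factor. The stretches that hold the PU boxes are shown for 5 of the 7 genes, and not for Cd14 and Csf1r, with 20 bases on each side. The 5 were not chosen by their expression. Each is written 5′ to 3′ on the strand of its gene, with the PU box in capitals as GAGGAA or, for a box on the opposite strand, TTCCTC.
Mrc1, GRCr8 chr17:82157525-82157715, plus strand: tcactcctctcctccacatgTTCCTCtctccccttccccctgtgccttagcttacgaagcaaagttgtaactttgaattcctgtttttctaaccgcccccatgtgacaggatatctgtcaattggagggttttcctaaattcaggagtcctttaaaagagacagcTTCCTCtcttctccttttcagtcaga
Adgre1, GRCr8 chr9:2329213-2329258, plus strand: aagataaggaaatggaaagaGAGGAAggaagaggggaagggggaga
Itgam, GRCr8 chr1:192089421-192089578, plus strand: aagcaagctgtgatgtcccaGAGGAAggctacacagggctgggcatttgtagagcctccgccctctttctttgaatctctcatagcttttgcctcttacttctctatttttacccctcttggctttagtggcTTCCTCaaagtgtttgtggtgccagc
Lyz2, GRCr8 chr7:54798032-54798077, minus strand: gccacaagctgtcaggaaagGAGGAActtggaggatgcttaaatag
Cd68, GRCr8 chr10:54882412-54882488, minus strand: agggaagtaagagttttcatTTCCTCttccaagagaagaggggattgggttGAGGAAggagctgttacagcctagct

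Total counts per library ranged from 22040987 to 35275498, and the counts of the 10 genes ranged from 14 (Aif1 in control library 4) to 4300 (Lyz2 in treated library 3). Values are CPM, which are counts relative to the library total, scaled with TMM factors. Library-wide measures set some libraries apart. On the second principal component of log2 CPM, which held 10.6% of the variance, treated library 1 lay at -78.8 and control library 4 at -54.2, and the other 16 libraries between -25.2 and 26.8. The identifier ENSMUSG00000086503 had 12 to 41 counts in every treated and DN library and 23 in control library 4, but 38313 to 52784 in control libraries 1, 2, 3, 5 and 6. These 5 controls differ from all treated and DN libraries in a feature that control library 4 does not share. The labels give no sex or strain, and whether the division follows either was not tested. Model status and this division cannot be told apart in the comparison of 5 of the 6 controls, so results against the controls are also given from a fit with this division as a covariate, in which control library 4 is the only reference, and from a fit without control library 4. The fit with the covariate has no spread of its own for that single library, which is assumed to vary like the other libraries, so its values describe the difference from control library 4 and are no replicated test.

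In the DN kidneys, 5 of the 10 markers were higher than in the controls, 0 were lower, and 5 did not pass the test. Those that rose were Cd14, Aif1, Tyrobp, Fcer1g and Cd68, by 2.03-fold to 2.85-fold. The F4/80 transcript Adgre1, the mannose receptor transcript Mrc1, Csf1r, Itgam and Lyz2 did not pass. Over all 19233 genes tested, 16.9% were called higher and 15.3% lower in this comparison (edgeR quasi-likelihood test, Benjamini-Hochberg adjusted p under 0.05). The median log2 fold change of the 10 genes was 0.83, against 0.01 over all genes tested. For Cd14, Aif1, Tyrobp and Fcer1g, all 6 DN libraries stood above all 6 control libraries, a separation that 8.34% of all genes tested showed. With the division of the controls as a covariate, Cd14 and Aif1 were the 2 markers past the threshold against control library 4 alone, where 2.34% of all genes were higher. Without control library 4, Itgam and Lyz2 were called as well, 7 markers in all, where 16.9% of all genes were higher. The controls left in that fit all lie on the same side of the division, so it cannot tell model status and the division apart.

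**Figure D1:**
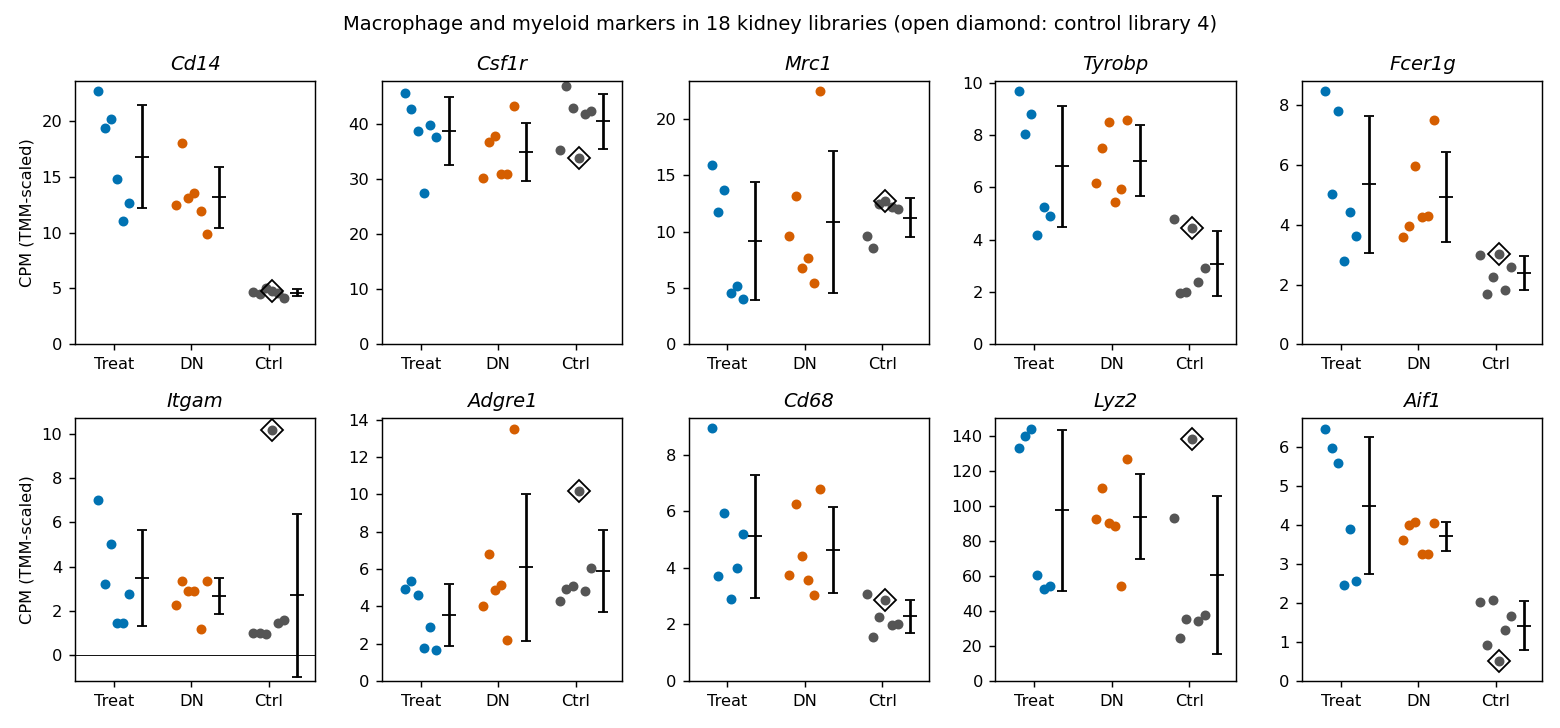
TMM-scaled CPM of the 10 markers in each library of the Treat, DN and Ctrl groups, with the mean and SD of each group (n = 6) to the right of its points; each panel has its own linear axis. Cd14 lies at 11.03 to 22.7 CPM in Treat, 9.87 to 18.1 CPM in DN and 4.16 to 5.02 CPM in Ctrl, while control library 4 (open diamond) stands at 10.2 CPM of Itgam, above every other library.

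Among the receptors, Cd14, which binds bacterial lipopolysaccharide and passes it to TLR4, showed the clearest separation. It ranged from 9.87 to 18.1 CPM in DN (median 12.8), and from 4.16 to 5.02 CPM in Ctrl (median 4.61). All DN libraries lay above all controls, and the controls varied little around their mean (CV 6.37%). Its log2 fold change was 1.51 (SE 0.17, edgeR adjusted p = 3.26e-06), which is 2.85-fold. The call held in each alternative setting with more than 1 control library. Against control library 4 alone the log2 fold change was 1.45. For Cd14, control library 4 (4.81 CPM) lay within the range of the other 5 controls.

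Csf1r encodes the receptor for CSF1 and IL-34. It ranged from 30.1 to 43.2 CPM in DN (median 33.7), and from 33.8 to 46.8 CPM in Ctrl (median 42.0). The groups overlapped, and the log2 fold change was -0.21 (95% interval -0.47 to 0.04, edgeR adjusted p = 0.176). With limma voom and library quality weights Csf1r was called lower (log2 fold change -0.28, adjusted p = 0.0470). Of all 19233 genes tested, that setting called 7417, 3823 of them higher and the rest lower. Mrc1, an endocytic receptor for mannose-bearing glycoproteins, ranged from 5.39 to 22.4 CPM in DN (median 8.64), and from 8.53 to 12.7 CPM in Ctrl (median 12.1). The DN libraries spread on both sides of the controls, and the difference was not distinguishable from 0 (log2 fold change -0.05, 95% interval -0.82 to 0.71).

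The adaptors Tyrobp and Fcer1g encode small membrane proteins that pair with activating receptors, such as TREM2 and Fc receptors, and signal through the kinase SYK. Tyrobp ranged from 5.44 to 8.58 CPM in DN (median 6.83), and from 1.95 to 4.80 CPM in Ctrl (median 2.65). Fcer1g ranged from 3.58 to 7.50 CPM in DN (median 4.28), and from 1.70 to 3.03 CPM in Ctrl (median 2.42). Neither transcript overlapped between the groups. The log2 fold change was 1.19 for Tyrobp (SE 0.26, edgeR adjusted p = 0.00185) and 1.04 for Fcer1g (SE 0.27, adjusted p = 0.00621). With the division of the controls as a covariate these values were 0.66 and 0.70, and neither passed the threshold against control library 4 alone (adjusted p = 0.446 and 0.453, edgeR). All 6 DN libraries nevertheless lay above control library 4, which held 4.45 CPM of Tyrobp and 3.03 CPM of Fcer1g.

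Itgam encodes CD11b, a chain of the integrin complement receptor CR3 found on monocytes, macrophages and neutrophils, and Adgre1 encodes F4/80, a classical macrophage surface marker in the mouse. Itgam ranged from 1.18 to 3.35 CPM in DN (median 2.91), and from 0.953 to 10.2 CPM in Ctrl (median 1.23). The high control was library 4 at 10.2 CPM, against 0.953 to 1.59 CPM in the other 5. Over all libraries the log2 fold change was -0.01 (SE 0.56, edgeR adjusted p = 0.990). Without control library 4 it was 1.15 (edgeR adjusted p = 0.0293), and with the division as a covariate, which makes library 4 the only reference, it was -1.93. Other alternatives that kept control library 4 also turned the sign of Itgam, with values from 0.012 to 0.99 that were not called. Adgre1 ranged from 2.20 to 13.5 CPM in DN (median 5.0), and from 4.29 to 10.2 CPM in Ctrl (median 5.0). Among the DN and control libraries, the highest and lowest values of Adgre1 were both in DN, in libraries 6 and 5. Control library 4 was the highest control, and the log2 fold change of Adgre1 was 0.05 (95% interval -0.75 to 0.84).

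Of the intracellular markers, Cd68 encodes a glycoprotein of lysosomes and endosomes, Lyz2 a lysozyme, and Aif1 the calcium-binding protein IBA1. Aif1 ranged from 3.27 to 4.08 CPM in DN (median 3.80), and from 0.511 to 2.09 CPM in Ctrl (median 1.49). The DN libraries were uniform (CV 10.3%) and all lay above the controls. The log2 fold change of Aif1 was 1.38 (SE 0.30, edgeR adjusted p = 0.00194), and it was called in each alternative with more than 1 control library. Control library 4 was the lowest of the controls for Aif1, with 14 counts, and against it alone the log2 fold change was 2.85. Cd68 ranged from 3.03 to 6.77 CPM in DN (median 4.09), and from 1.54 to 3.07 CPM in Ctrl (median 2.14). The lowest DN library stood just under the highest control, and the log2 fold change was 1.02 (SE 0.27, adjusted p = 0.00750). It was 0.70 with the division as a covariate and did not pass the threshold there (adjusted p = 0.461).

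Lyz2 ranged from 54.5 to 127 CPM in DN (median 91.7), and from 24.8 to 138 CPM in Ctrl (median 36.8). All 6 DN libraries lay above the control median, but control library 4 at 138 CPM was above every DN library, and control library 1 held 93.5 CPM. The log2 fold change was 0.63 (SE 0.39, edgeR adjusted p = 0.229) over all libraries and 1.06 (adjusted p = 0.0306) without control library 4. With limma voom and library quality weights, which kept all libraries, Lyz2 was called higher (1.18, adjusted p = 0.0114). That setting called 3823 of all 19233 genes tested higher. Against control library 4 alone the value of Lyz2 was -0.56. In the mouse, Lyz2 has a close paralog, Lyz1, so its reads could be split or shared by the counting and its level is uncertain.

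**Figure D2:**
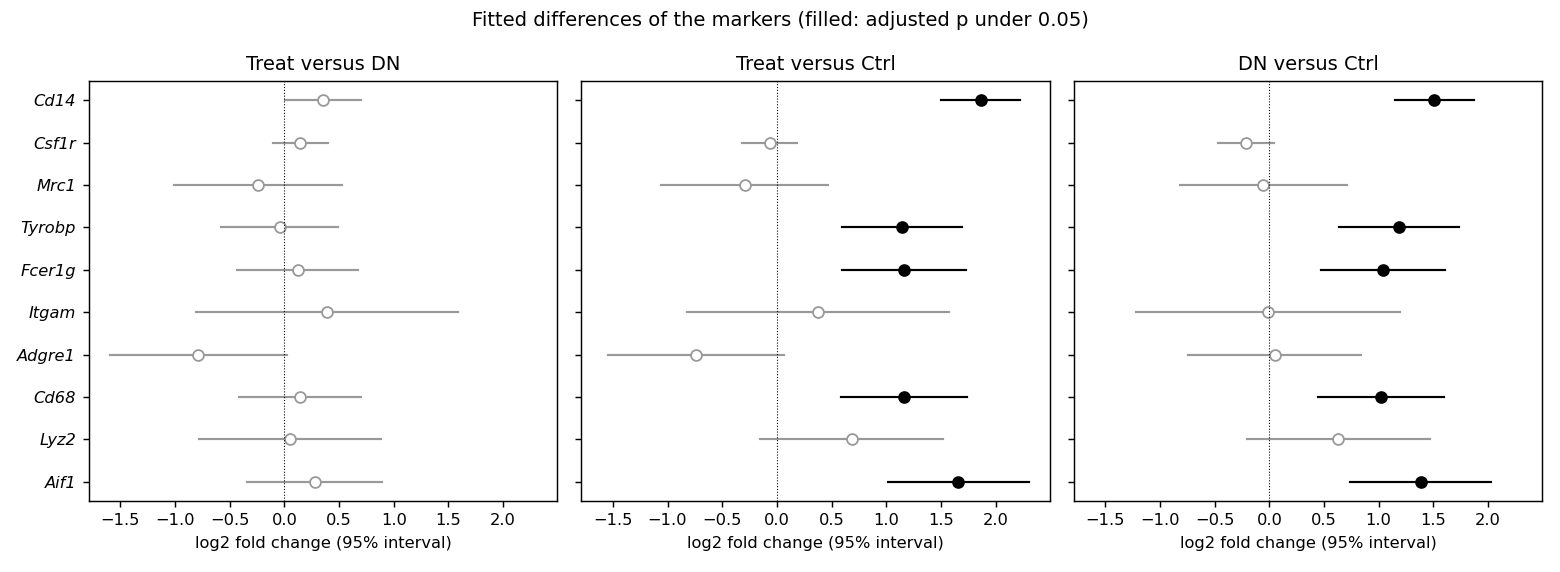
Fitted log2 fold changes of the 10 markers with 95% intervals (SE times the t quantile on 15 residual degrees of freedom) for Treat versus DN, Treat versus Ctrl and DN versus Ctrl; filled points have an edgeR adjusted p under 0.05. The 5 called genes are the same against the controls in the Treat and the DN group, and 0 of 10 are called between Treat and DN.

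Between the treated and the untreated model kidneys, 0 of the 10 markers were called, against 0.536% of all genes tested called higher and 0.858% called lower (edgeR). At an unadjusted p under 0.05 there was 1, Cd14, and the share of all genes at that looser threshold was not determined. DESeq2 and limma voom with quality weights each called 0 of the 10 markers. Leaving out treated library 1 and control library 4 together also gave 0 calls. The treated and DN libraries overlapped for all 10 genes. Of all genes tested, 0.770% had every treated library above every DN library and 1.03% every treated library below. The median log2 fold change of the 10 genes was 0.13, against -0.01 over all genes tested, and on unscaled library totals the medians were 0.27 for the 10 genes and 0.13 over all genes.

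Cd14 ranged from 11.03 to 22.7 CPM in Treat (median 17.1), and from 9.87 to 18.1 CPM in DN (median 12.8). In 4 of 6 treated libraries it was above the DN median, with a log2 fold change of 0.35 (95% interval 0.01 to 0.70, edgeR adjusted p = 0.287). Adgre1 had the largest fitted difference among the 10 genes. It ranged from 1.65 to 5.33 CPM in Treat (median 3.74), and from 2.20 to 13.5 CPM in DN (median 5.0). In 1 of 6 treated libraries it was above the DN median, with a log2 fold change of -0.79 (95% interval -1.59 to 0.02, adjusted p = 0.311). Without DN library 6, the highest for Adgre1, the log2 fold change was -0.38.

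The remaining markers had fitted differences between Treat and DN with intervals that included 0. For Mrc1 the log2 fold change was -0.24 (95% interval -1.01 to 0.53), with 3.98 to 15.9 CPM in Treat and 5.39 to 22.4 CPM in DN. For Tyrobp it was -0.04 (-0.58 to 0.49), and it was 0.10 on unscaled library totals. The values for Fcer1g and Cd68 were 0.12 (-0.43 to 0.68) and 0.14 (-0.42 to 0.70). Those for Csf1r and Aif1 were 0.15 (-0.11 to 0.40) and 0.28 (-0.34 to 0.89). For Itgam the interval was the widest of the 10, with 0.39 (-0.81 to 1.59), and for Lyz2 the value was 0.05 (-0.78 to 0.88). For 8 of the 10 genes the interval held a difference of 1.5-fold in at least 1 direction, so the data do not show that the levels were alike.

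Against the controls, the treated kidneys had 5 markers higher and 0 lower, where 23.0% of all genes tested were higher and 21.9% lower. These 5 were also the 5 called in DN, and the comparisons share the control libraries. The median log2 fold change of the 10 genes was 0.91, against 0.02 over all genes tested. Cd14 was higher by a log2 fold change of 1.86 (SE 0.17, edgeR adjusted p = 2.22e-07), next to 1.51 in DN. Aif1 was higher by 1.66 (SE 0.30, adjusted p = 0.00029), next to 1.38 in DN. Cd68, Fcer1g and Tyrobp were higher by 1.16, 1.16 and 1.14, next to 1.02, 1.04 and 1.19 in DN. All 6 treated libraries stood above all 6 controls for Cd14 and Aif1, a separation shown by 11.5% of all genes tested.

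Tyrobp, Fcer1g and Cd68 overlapped slightly between Treat and Ctrl. Tyrobp ranged from 4.18 to 9.68 CPM in Treat, with 1.95 to 4.80 CPM in Ctrl. Fcer1g ranged from 2.78 to 8.48 CPM in Treat, with 1.70 to 3.03 CPM in Ctrl, and Cd68 from 2.89 to 8.94 CPM in Treat, with 1.54 to 3.07 CPM in Ctrl. Treated library 4 was the lowest of its group in each case, and it lay below control library 1 for all 3 genes and below control library 4 for Tyrobp and Fcer1g. Against control library 4 alone, in the fit with the division as a covariate, Cd14 (log2 fold change 1.80) and Aif1 (3.13) passed the threshold, where 3.90% of all genes were higher. The other 3 did not pass it there, with log2 fold changes of 0.85 for Cd68, 0.82 for Fcer1g and 0.62 for Tyrobp. Without control library 4, Itgam (1.54, edgeR adjusted p = 0.00383) and Lyz2 (1.11, adjusted p = 0.0174) joined the 5, where 23.1% of all genes were higher. In that fit too, the group difference and the division of the controls cannot be told apart.

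Of the 5 markers not called between Treat and Ctrl, Adgre1 ranged from 1.65 to 5.33 CPM in Treat (median 3.74), and from 4.29 to 10.2 CPM in Ctrl (median 5.0). Its log2 fold change was -0.74 (95% interval -1.55 to 0.07, edgeR adjusted p = 0.121), negative where those of the called markers were positive. Mrc1 had -0.29 (-1.06 to 0.47), and Csf1r -0.07 (-0.32 to 0.19), which was 0.05 on unscaled library totals. Lyz2 had 0.68 (-0.15 to 1.52) and Itgam 0.38 (-0.82 to 1.58) over all libraries. Limma voom with quality weights called Lyz2 higher (1.05, adjusted p = 0.0152), as it did 5196 of all 19233 genes tested. Against control library 4 alone the values of Lyz2 and Itgam were -0.50 and -1.54.

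Control library 4 stood apart from the other 5 controls in a gene-specific way. It held 8.50 times their mean of Itgam, 3.06 times that of Lyz2 and 2.02 times that of Adgre1. Tyrobp, Fcer1g, Cd68 and Mrc1 stood at 1.58, 1.33, 1.31 and 1.16 times the mean of the others, Cd14 at 1.05 times and Csf1r at 0.811 times. Of these, Tyrobp, Cd68 and Cd14 lay within the range of the other controls. Fcer1g (3.03 CPM) and Mrc1 (12.7 CPM) were just above the highest of the others (2.99 and 12.5 CPM). Csf1r (33.8 CPM) was just below the lowest (35.2 CPM). Aif1 was low in this library, with 14 counts and 0.318 times the mean of the others. Itgam and Adgre1 had 279 counts each in it. The part that another cell type, such as neutrophils, has in the Itgam and Lyz2 values of this library was not tested.

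**Figure D3:**
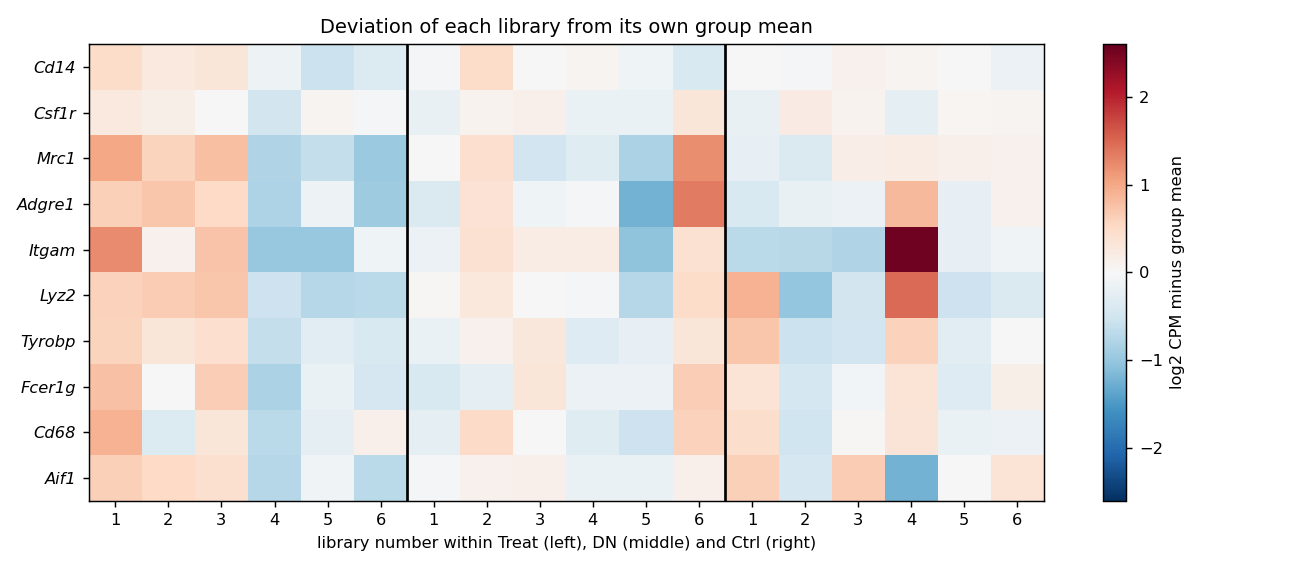
Log2 CPM of each marker in each library minus the mean of the library's own group, with the Treat, DN and Ctrl libraries from left to right (red above, blue below the group mean). Treated libraries 1 and 3 are above the group mean for 10 of 10 markers, treated library 4 and DN library 5 for 0, and the largest single deviation is that of Itgam in control library 4 (2.54).

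Within the treated and the DN groups the markers varied together from animal to animal. Averaged over the 10 genes, treated libraries 1, 2 and 3 deviated from the group mean of log2 CPM by 0.70, 0.30 and 0.49, and libraries 4, 5 and 6 by -0.66, -0.38 and -0.45. For Lyz2 the treated libraries formed separate sets, with 134 to 144 CPM in libraries 1, 2 and 3 and 52.7 to 60.5 CPM in libraries 4, 5 and 6. Mrc1 showed the same split, with 11.8 to 15.9 CPM and 3.98 to 5.14 CPM. The labels give no batch that sets these libraries apart. In DN, library 6 was the highest (mean deviation 0.51, 9 of 10 markers above the group mean) and library 5 the lowest (-0.52, 0 of 10). DN library 6 held 13.5 CPM of Adgre1 and 22.4 CPM of Mrc1, while its Cd14, at 9.87 CPM, was the lowest of the DN group.

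The spread within the groups differed by gene. The CV of Mrc1 was 57.0% in Treat, 58.0% in DN and 15.4% in Ctrl, and that of Adgre1 was 46.3%, 64.7% and 36.9%. Csf1r was the steadiest in Treat, with a CV of 15.97%, next to 15.003% in DN and 12.2% in Ctrl. The CV of Aif1 was 39.2% in Treat and 10.3% in DN. These CVs rest on 6 libraries each and were not compared by a test.

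The deviations from the group means were correlated for most gene pairs. Pearson's r over the 18 libraries had a median of 0.54 across the 45 pairs, and 43 pairs were positive. The tightest pairs were Lyz2 with Tyrobp (r = 0.89), Adgre1 with Mrc1 (0.88) and Tyrobp with Fcer1g (0.84). Without control library 4 and treated library 1 these were 0.88, 0.91 and 0.81, and the median was 0.54. Csf1r and Cd14 were the least tied to the rest after these libraries were left out, with a mean r to the other 9 of 0.37 and 0.28. The mean r of Aif1 to the other 9 was 0.30 with all libraries and 0.57 without these. Aif1 and Itgam had r = -0.19 with all libraries and 0.43 without these. Within single groups of 6 libraries, the median over the pairs was 0.83 in Treat, 0.67 in DN and 0.25 in Ctrl. The pairs share libraries and their depth and scaling, so these values are descriptions.

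**Figure D4:**
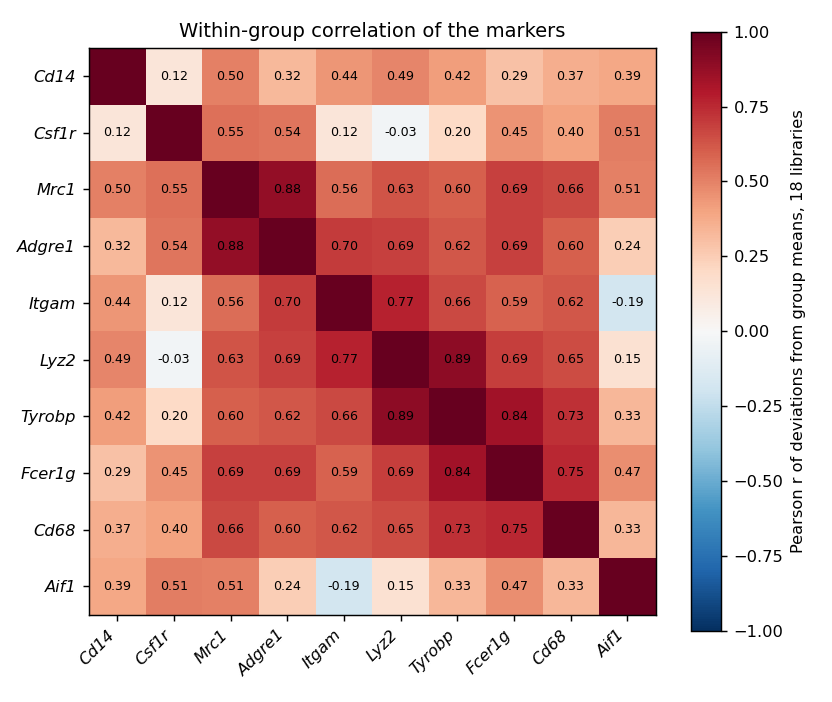
Pearson correlation of the deviations of log2 CPM from group means for each pair of the 10 markers over 18 libraries (color scale -1 to 1). A block of Mrc1, Adgre1, Itgam, Lyz2, Tyrobp, Fcer1g and Cd68 varies together (r from 0.56 to 0.89), while Csf1r and Cd14 are less closely tied to it, as is Aif1 over all 18 libraries (mean r with the other 9 of 0.30, which is 0.57 without control library 4 and treated library 1).

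Among 15862 other genes with a mean of at least 1 CPM, the 2 whose deviations were most like those of the markers were ENSMUSG00000059498 (mean r with the 10 genes 0.72) and ENSMUSG00000036905 (0.70). The files do not pair these identifiers with names. Without control library 4 and treated library 1 their mean r was 0.73 and 0.70, and ENSMUSG00000036905 ranked 9 among these genes. A mean r above 0.5 was reached by 2.97% of these genes, and their median was -0.03.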

How the data were processed

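Kidney messenger RNA of 18 animals (6 per group) was sequenced, per the labels. The authors deposited 1 table of raw counts per gene, with no normalization. The submitters' processing notes name the builds GRCm38 and mm10. For the aligner, counting tool, annotation release and strandedness, the sources used here name none. Columns were matched to samples by library name and groups to titles. The labels do not say more of the replicates than 6 animals per group.

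The whole table was fitted with edgeR 4.0.16 in R 4.3.3. Genes were kept by filterByExpr (19233 of 55335), scaled with TMM factors and fitted over all 18 libraries with 1 coefficient per group (glmQLFit, glmQLFTest), with Benjamini-Hochberg adjustment over all genes tested and calls under 0.05. SEs were derived from the F statistics. Log2 CPM used a prior count of 2. The common biological coefficient of variation was 0.273, and with at least 14 counts per marker and library, counting error did not exceed it. The code was tested on simulated data.

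The markers, the lists and the alternatives, among them the division of the controls, were chosen with earlier results of these data known. All 10 markers are named in each comparison. The 12 lists of other genes (147 symbols, 137 of them in the rat gene table) could not be used, since 0 identifiers matched that table. Alternatives were DESeq2 1.42.0, limma 3.58.1 voom with quality weights, RLE factors, library totals, every gene with a count, genes with over 1 CPM in 6 or more libraries, only the 12 libraries compared, a replicate block, the division of the controls as a covariate, control library 4 and treated library 1 left out together, and each library left out in turn. The labels do not say that a replicate number marks a pair.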

Additional observations from a re-analysis of the deposited data

Results flagged for a closer look

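Among 30 sets of 6 values (10 markers in 3 groups), 2 had a library far from the others. Chance gives about 1 such set in 20 when sets are independent. These sets share libraries and the markers vary together, so the number of flags cannot decide whether they arose by chance. The gap to the next library, over the range, was 0.931 for Itgam and 0.697 for Adgre1, where 0.625 was the threshold. In both sets the library was control library 4. It held 10.2 CPM of Itgam, with 0.953 to 1.59 CPM in the other controls, and 10.2 CPM of Adgre1, with 4.29 to 6.07 CPM in the other controls.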

How the results depend on the processing

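The 5 calls against the controls (Cd14, Aif1, Tyrobp, Fcer1g and Cd68) kept their direction under all 28 alternatives. With the division of the controls as a covariate, 2 markers were called higher in Treat versus Ctrl and 2 in DN versus Ctrl, against 5 in each without it. That fit has 1 control library as its reference, assumed to vary like the other libraries, and is no replicated test. Limma voom with quality weights called 1 marker lower in DN versus Ctrl, against 0. Of all 19233 genes tested, voom called 7417 in that comparison, 3823 of them higher and the rest lower. The other counts of markers called stayed within 1.5 times. The within-group median r of 0.54 was 0.61 on unscaled library totals.

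Among markers that were not called, the log2 fold change changed sign 42 times. On unscaled totals it was 0.097 for Tyrobp in Treat versus DN and 0.047 for Csf1r in Treat versus Ctrl. With the 12 libraries compared, Itgam had 0.012 in DN versus Ctrl. With voom, Itgam had 0.99 in DN versus Ctrl. For Treat versus DN the voom values were -0.042 for Cd68, -0.035 for Itgam and -0.13 for Lyz2. With the division as a covariate, DN versus Ctrl gave -0.74 for Adgre1, 0.043 for Csf1r and -0.56 for Lyz2, and Treat versus Ctrl gave 0.19 for Csf1r, -1.54 for Itgam and -0.50 for Lyz2. Without control library 4 and treated library 1, Itgam had 1.14 in DN versus Ctrl. For Treat versus DN the values there were -0.070 for Cd68, -0.041 for Lyz2 and -0.039 for Fcer1g.

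With single libraries left out, DN versus Ctrl ranged from -0.36 to 0.27 for Adgre1, from -0.19 to 1.15 for Itgam and from -0.40 to 0.085 for Mrc1. Treat versus DN ranged from -0.092 to 0.28 for Cd68, from -0.093 to 0.18 for Lyz2, from -0.47 to 0.11 for Mrc1, from -0.17 to 0.065 for Tyrobp and from -0.057 to 0.28 for Fcer1g. Treat versus Ctrl ranged from -0.12 to 0.014 for Csf1r. Causes were not tested.

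With a replicate block, Adgre1 had -0.072 and Itgam 0.36 in DN versus Ctrl, and no marker changed its call. Only 2 of 18 libraries correlated best with a library of their own number, so the numbers were not treated as pairs. Over all genes, the calls in Treat versus DN were 268, against 117 with the block, 116 with the 12 libraries compared, 119 with no filter, 593 without control library 4 and treated library 1, 737 with voom, 775 on unscaled totals and 799 with DESeq2, and 97 to 446 with 1 library left out. On unscaled totals 84.4% of these calls were higher, against 38.4%, and in Treat versus Ctrl 64.5%, against 51.2%. The covariate gave 986 calls in DN versus Ctrl, against 6202, and 1862 in Treat versus Ctrl, against 8629.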
